A study of Mus musculus with 10 samples.

Results

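Enteroendocrine cells and tuft cells are rare secretory cells scattered through the intestinal epithelium. Chromatin accessibility was examined at 7 genes that mark them, namely Neurog3, Neurod1, Chga and Chgb for enteroendocrine cells and Dclk1, Pou2f3 and Trpm5 for tuft cells. The members were found by their Ensembl gene IDs, which are ENSMUSG00000044312 for Neurog3, ENSMUSG00000034701 for Neurod1, ENSMUSG00000021194 for Chga, ENSMUSG00000027350 for Chgb, ENSMUSG00000027797 for Dclk1, ENSMUSG00000032015 for Pou2f3 and ENSMUSG00000009246 for Trpm5. In the counts used here, 39 of the 246479 peaks carried one of these IDs. Of these, 28 belonged to the enteroendocrine genes and 11 to the tuft cell genes. No peak used here carried the ID of Dclk1, a kinase gene widely used to mark tuft cells, so Dclk1 is not analysed here and 6 of the 7 genes were measured.

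The data were assay for transposase-accessible chromatin (ATAC) sequencing of sorted intestinal epithelial cells (IECs) from 5 WT animals (WT1 to WT5) and 5 KO animals (KO6 to KO10). The study's description of the experiment gives a larger group size, and any further mice are not analysed here. The labels give the tissue as duodenum, while the study's methods describe IECs of the proximal small intestine that includes the upper jejunum. In ATAC-seq a transposase cuts DNA that is free of nucleosomes, and the number of reads over a region, called a peak, rises with its accessibility. KO mice carried a targeted global deletion of the zinc transporter gene Zip14 (Slc39a14), and WT mice were Zip14+/+. Both genotypes derive from crosses of heterozygous mice of a line backcrossed to C57BL/6, and whether the mice used were littermates is not given in the sources used here. The study's methods describe young adult females unless stated otherwise, and the sample labels give neither sex nor age. The deletion is present in every tissue of the KO mice, so direct effects on the epithelium and effects from other organs cannot be told apart in this model.

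Enteroendocrine cells sense the gut contents and release peptide hormones and serotonin from secretory granules. They arise from crypt progenitors that transiently express the transcription factor Neurogenin 3, which in turn activates NeuroD1 and the programme of granule proteins, among them the chromogranins A and B. Tuft cells are chemosensory cells whose identity depends on the transcription factor Pou2f3, and which respond to luminal stimuli through a taste-like cascade that ends in the cation channel Trpm5. The comparison of KO with WT mice asks whether accessibility at these lineage genes differed when Zip14 was deleted.

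RefSeq genes on GRCm38.p6, the build called mm10 in the submitters' processing notes, place Neurog3 on chromosome 10 from 62133090 to 62134763, Neurod1 on chromosome 2 from 79452637 to 79456636, Chga on chromosome 12 from 102554941 to 102565027 and Chgb on chromosome 2 from 132781642 to 132795079. Pou2f3 lies on chromosome 9 from 43123927 to 43205755 and Trpm5 on chromosome 7 from 143071529 to 143094642. The deposited peaks are listed by gene ID with no coordinates, so the position of a peak within or near its gene (exon, intron or promoter) was not determined. The order of the entries implies a running number for each peak, and the peaks of each of the 6 genes had consecutive numbers. Peaks are therefore numbered from 1 within a gene in this order.

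To show the regulatory sequence at the start of the members, the 250 bases before the RefSeq start are given 5′ to 3′ on the strand of the gene for Neurog3 (plus strand, chr10:62132840-62133089), Neurod1 (minus strand, chr2:79456637-79456886), Chga (plus strand, chr12:102554691-102554940), Chgb (plus strand, chr2:132781392-132781641) and Trpm5 (minus strand, chr7:143094643-143094892). Capitals mark matches to the E-box CANNTG, the core recognised by basic helix-loop-helix factors such as NeuroD1, and to the cyclic AMP response element TGACGTCA.
Neurog3: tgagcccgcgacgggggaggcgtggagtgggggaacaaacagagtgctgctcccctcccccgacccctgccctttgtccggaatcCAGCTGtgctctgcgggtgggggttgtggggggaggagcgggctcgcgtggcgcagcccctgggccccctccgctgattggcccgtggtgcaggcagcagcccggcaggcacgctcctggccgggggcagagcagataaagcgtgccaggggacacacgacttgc
Neurod1: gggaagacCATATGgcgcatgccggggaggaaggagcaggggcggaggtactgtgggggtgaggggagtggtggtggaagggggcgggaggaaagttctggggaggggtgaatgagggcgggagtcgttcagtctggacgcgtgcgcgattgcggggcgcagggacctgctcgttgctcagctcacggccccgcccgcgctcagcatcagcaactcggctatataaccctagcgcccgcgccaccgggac
Chga: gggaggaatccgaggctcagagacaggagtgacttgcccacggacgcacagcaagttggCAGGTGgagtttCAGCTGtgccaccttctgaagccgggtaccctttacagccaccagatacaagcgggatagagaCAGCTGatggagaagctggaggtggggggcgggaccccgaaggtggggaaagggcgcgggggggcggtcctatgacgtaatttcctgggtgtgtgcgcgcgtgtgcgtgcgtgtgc
Chgb: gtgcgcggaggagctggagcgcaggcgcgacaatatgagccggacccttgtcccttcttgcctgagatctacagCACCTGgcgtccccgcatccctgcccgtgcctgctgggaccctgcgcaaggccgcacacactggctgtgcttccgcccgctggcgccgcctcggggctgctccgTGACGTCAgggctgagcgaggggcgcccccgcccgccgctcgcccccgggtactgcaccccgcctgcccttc
Trpm5: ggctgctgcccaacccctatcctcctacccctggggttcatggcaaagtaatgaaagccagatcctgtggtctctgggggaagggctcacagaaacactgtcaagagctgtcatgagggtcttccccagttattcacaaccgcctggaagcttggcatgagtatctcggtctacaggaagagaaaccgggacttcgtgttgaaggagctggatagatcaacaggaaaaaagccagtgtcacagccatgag

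Both strands were searched for 5 motifs in a window of 300 bases, from 250 before to 50 after the start. The Neurog3 window held 1 E-box, the Neurod1 window 1, the Chga window 3 and the Chgb window 2, and the Trpm5 window held 0. An E-box was present in 72.3% of all 32851 RefSeq windows of this length. Chgb held the response element TGACGTCA, which 1.79% of windows held, at 72 bases before its start. The Chga window held a TATAAA at base 6 after the start, and 13.6% of windows held this motif. The octamer ATGCAAAT, bound by POU factors (1.74% of windows), and the NeuroD-type E-box CAGATG (17.2% of windows, and itself an E-box) matched none of these 5 windows. Pou2f3 had no window in the table. Which deposited peak, if any, covers these bases was not determined, so the matches describe the sequence alone.

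Accessibility at the 4 enteroendocrine genes was somewhat lower on average in KO mice, and at the 2 tuft cell genes somewhat higher, and none of these differences passed the test. At Chgb the direction was not stable. Its log2 fold change ranged from -0.34 with loess offsets to 0.09 with 1 surrogate variable in the model. Summed over the peaks of a gene, the mean level in KO mice was between 0.849 times (Neurog3) and 1.11 times (Trpm5) that in WT mice. Levels are CPM, that is, counts scaled by the TMM-adjusted library total, and genes were tested on the counts with edgeR's quasi-likelihood test. The TMM factors were computed separately for genes and for peaks. Summed levels and peak levels are therefore on different scales, and the levels of a gene's peaks do not add up to its summed level. Of the 6 genes, 0 passed an adjusted p of 0.05 (Benjamini-Hochberg over the 36715 genes tested), with adjusted p between 0.142 and 0.736, where 3.91% of all genes tested passed it (2.9% with KO mice higher and 1.01% with KO mice below WT). That background of 1434 genes was itself unstable, since it was 0 without WT3, WT5, KO6, KO9 or KO10, 342 without WT4, 867 without KO8, 2235 without KO7 and 3310 without WT2. By DESeq2, 0 of the 6 passed, where it called 2188 genes in all. At an unadjusted p under 0.05, 1 of the 6 (Neurog3) was lower and 0 were higher. Among all genes tested, 27.5% had an unadjusted p under 0.05, with 11.8% lower and 15.7% higher in KO mice, so a count of 1 in 6 does not stand above the background. The genotypes overlapped at all 6 genes, and 6.02% of all genes were free of overlap, 2.84% with KO mice lower. Of the 6 genes 4 had a log2 fold change below 0, against 50.5% of all genes, and the median was -0.13 over the 6 and -0.00 over all genes. Leaving out 1 mouse moved the median over the 6 from -0.17 (without WT2) to -0.06 (without WT4). It was -0.18 after thinning and -0.02 with 1 surrogate variable, where 3 of the 6 were below 0. Since these libraries hold all epithelial cells of a preparation, fewer cells of a type and lower accessibility per cell cannot be told apart.

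**Figure D1:**
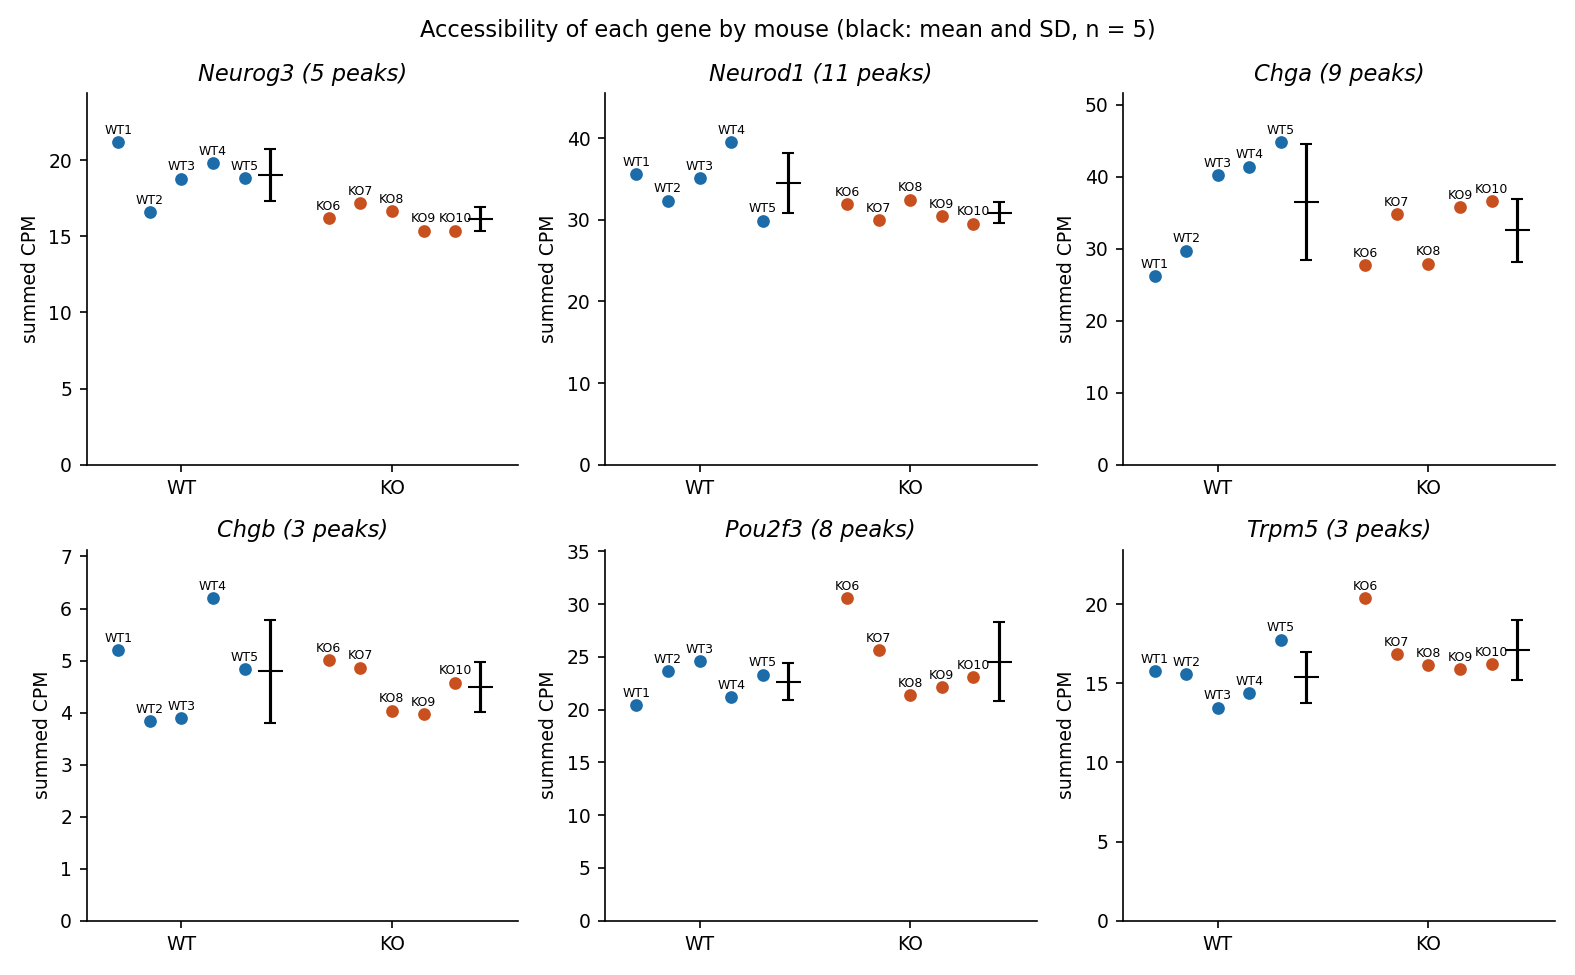
Summed accessibility of the 6 measured genes in each mouse, in CPM on a linear axis from 0, with WT in blue, KO in orange and the mean and SD (n = 5) in black. KO values of Neurog3 lie between 15.4 and 17.2 and WT values between 16.6 and 21.2, and the genotypes overlap for every gene.

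Neurog3, the transcription factor that commits progenitors to the enteroendocrine lineage, had summed levels of 21.2, 16.6, 18.8, 19.8 and 18.8 CPM in WT1 to WT5. In KO6 to KO10 the levels were 16.2, 17.2, 16.6, 15.4 and 15.4 CPM. All 5 KO mice were below the WT median, and 3 of them (KO6, KO9 and KO10) were below every WT mouse, so that only WT2, the lowest WT mouse, reached into the KO range. WT mice averaged 19.0 ± 1.70 CPM and KO mice 16.2 ± 0.797 CPM (SD, n = 5 each). The log2 fold change was -0.24 (SE, the standard error, 0.10, 95% confidence interval -0.45 to -0.03), with an unadjusted p of 0.0296 and an adjusted p of 0.142 from edgeR. The exact two-sided permutation test over mice gave p = 0.0238 and 0.170 after adjustment over all genes, and 252 labelings allow no p below 0.00794. The unadjusted p from edgeR was above 0.05 without WT1 (0.0730), without KO9 (0.0651) and without KO10 (0.0573). It was also above 0.05 with loess offsets (0.0511), after thinning (0.0646) and with 1 surrogate variable in the model (0.131).

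Most of the signal at Neurog3 lay in peak 3, which took 68.3% ± 3.47 of the gene's counts in WT mice and 69.5% ± 5.63 in KO mice (SD, n = 5 each). It had 13.7, 11.4, 13.0, 12.4 and 12.04 CPM in WT1 to WT5 and 11.5, 12.6, 10.9, 10.2 and 12.2 CPM in KO6 to KO10, and the genotypes overlapped. The log2 difference at peak 3 was -0.13 (SE 0.12, adjusted p = 0.627 from edgeR over all 81022 peaks tested). It ranged from -0.29 with no filter (unadjusted p = 0.0629 from edgeR) to -0.06 with loess offsets. The other 4 peaks were weak, between 0.900 and 1.88 CPM on average, and 1 of them, peak 2, passed the filter on low counts.

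Neurod1, the factor that acts after Neurogenin 3 and is kept in mature hormone cells, had summed levels of 35.6, 32.3, 35.1, 39.5 and 29.9 CPM in WT1 to WT5. The KO mice had 31.9, 29.9, 32.4, 30.4 and 29.5 CPM. All 5 KO mice were below the WT median but 4 of them lay within the WT range, whose lower end was set by WT5. For Neurod1 the log2 fold change was -0.16 (SE 0.09, 95% confidence interval -0.35 to 0.03, adjusted p = 0.265 from edgeR). The exact permutation test gave p = 0.0794. Without WT5 the log2 fold change of Neurod1 was -0.21 (unadjusted p = 0.0426 from edgeR), and with loess offsets it was -0.06.

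Among the 11 peaks of Neurod1, peaks 7 and 11 were by far the strongest, and peaks 6 and 7 are named after their values were seen. Peak 11 was the single tested peak of any member at an unadjusted p under 0.05, with 15.7, 10.4, 13.2, 15.8 and 13.0 CPM in WT1 to WT5. In KO6 to KO10 it had 11.6, 10.03, 11.5, 11.3 and 11.97 CPM. The KO mice were close together and 4 of them lay above the lowest WT mouse, WT2. The log2 fold change of peak 11 was -0.28 (SE 0.13, unadjusted p = 0.0448, adjusted p = 0.299 from edgeR), and the exact permutation test gave p = 0.0714. The unadjusted p of peak 11 was under 0.05 in 7 of 18 alternatives and ranged up to 0.246, with 0.0614 by DESeq2 and 0.133 with loess offsets, and it was above 0.05 without WT1, WT4, KO6, KO7, KO8 or KO9 (0.0533 to 0.104). At peak 7, WT mice averaged 11.6 ± 2.22 CPM and KO mice 11.7 ± 1.72 CPM (SD, n = 5 each), and the log2 fold change was 0.04 (95% confidence interval -0.28 to 0.35). Whether these peaks differ from each other in their change was not tested. Peak 6, the third tested peak of the gene, had a log2 fold change of -0.43 from 5 to 33 counts per mouse (adjusted p = 0.512 from edgeR), and it ranged from -0.77 after thinning (unadjusted p = 0.0213) to -0.26 without KO9.

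Chga encodes chromogranin A, the classical granule marker of enteroendocrine cells, and varied widely among mice of one genotype. Its summed levels were 26.1, 29.7, 40.2, 41.4 and 44.8 CPM in WT1 to WT5 and 27.7, 34.8, 27.9, 35.8 and 36.6 CPM in KO6 to KO10. WT1 and WT2 were low among the WT mice and KO6 and KO8 among the KO mice, and all 5 KO mice lay within the WT range. WT mice averaged 36.4 ± 8.06 CPM and KO mice 32.6 ± 4.37 CPM (SD, n = 5 each). The difference on the log2 scale was -0.18 (SE 0.14, 95% confidence interval -0.47 to 0.10, adjusted p = 0.389 from edgeR), and the exact permutation test gave p = 0.421. Leaving out 1 mouse moved it from -0.28 without WT1 (unadjusted p = 0.0362 from edgeR) to -0.08 without WT5 (unadjusted p = 0.550), and loess offsets gave -0.07.

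The spread of Chga was seen at its strongest peaks, 4 and 8, singled out after their values were seen. Peak 8 had 10.8, 15.0, 19.5, 16.7 and 21.4 CPM in WT1 to WT5 and 9.87, 17.3, 9.70, 16.6 and 16.7 CPM in KO6 to KO10. Peak 4 had 3.11, 2.80, 6.74, 8.33 and 8.07 CPM in WT1 to WT5 and 3.70, 6.88, 4.18, 6.78 and 5.99 CPM in KO6 to KO10. WT1, WT2, KO6 and KO8 were the lowest mice in both peaks, which are 2 of each genotype. At Neurod1 the same 4 mice had 31.9 to 35.6 CPM, inside the range of the other 6. At Neurog3 WT1 was the highest of all mice (21.2 CPM), and at Chgb WT2 was the lowest of all (3.84 CPM). The library totals of the 4 mice, from 5202949 to 7318572, lay inside the range of the other 6. Why these mice were low at Chga was not tested. KO minus WT on the log2 scale was -0.28 for peak 8 (adjusted p = 0.491) and -0.15 for peak 4 (adjusted p = 0.840, both from edgeR). Leaving out 1 mouse moved peak 8 from -0.41 without WT1 (unadjusted p = 0.0311) to -0.17 without WT5, and peak 4 from -0.31 to 0.01 without the same mice. With no filter peak 8 was at -0.44 (unadjusted p = 0.0125). Of the 9 peaks of Chga 6 passed the filter, and KO mice had lower fitted values at 4 of them.

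**Figure D2:**
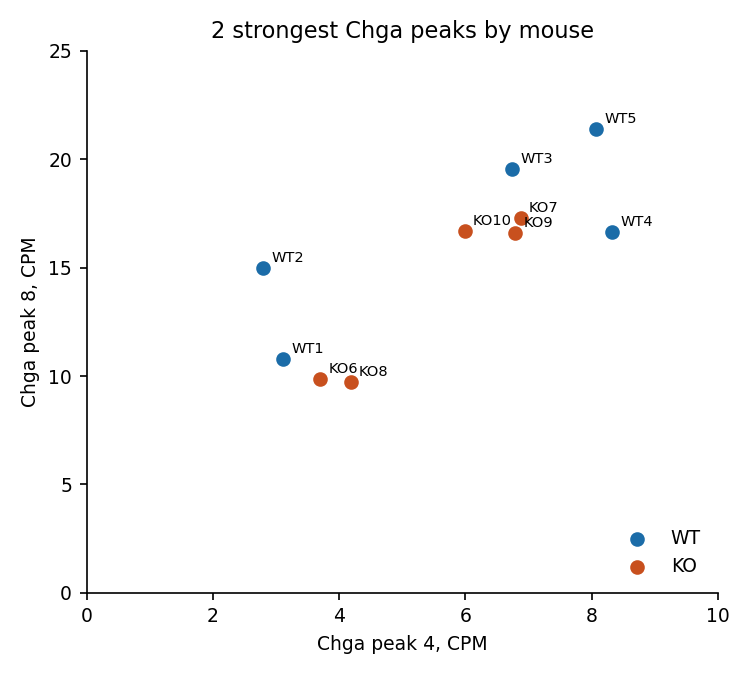
Accessibility of Chga peak 4 (x axis) and Chga peak 8 (y axis) in each of the 10 mice, in CPM on linear axes from 0, with WT in blue and KO in orange. WT1, WT2, KO6 and KO8 lie at the lower left, between 2.80 and 4.18 CPM in peak 4, and the other 6 mice lie at the upper right.

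Chgb, which encodes the granule protein chromogranin B, had the lowest counts of the members, between 19 and 81 per mouse. Its summed levels were 5.20, 3.84, 3.89, 6.20 and 4.84 CPM in WT1 to WT5 and 5.01, 4.86, 4.03, 3.97 and 4.57 CPM in KO6 to KO10, with all KO mice inside the WT range. The edgeR estimate was a log2 fold change of -0.10 (SE 0.19, 95% confidence interval -0.50 to 0.29, adjusted p = 0.736). At this depth the interval for Chgb leaves room for levels in KO mice between 0.707 and 1.22 times those in WT mice. The estimate for Chgb moved from -0.34 with loess offsets to 0.09 with 1 surrogate variable in the model, and it was -0.00 without WT4. Peak 2, the strongest of its 3 peaks, averaged 4.09 ± 0.733 CPM in WT and 3.40 ± 0.827 CPM in KO mice (SD, n = 5 each, log2 fold change -0.26, adjusted p = 0.588 from edgeR), with KO8, KO9 and KO10 below every WT mouse. Leaving out 1 mouse moved the value of this peak from -0.42 (without KO6) to -0.15 (without WT4), and 1 surrogate variable gave -0.04.

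Pou2f3, the factor required for the tuft cell lineage, had summed levels of 20.4, 23.6, 24.6, 21.2 and 23.3 CPM in WT1 to WT5. The KO mice had 30.6, 25.6, 21.4, 22.1 and 23.1 CPM. KO6 and KO7 were above every WT mouse and the other 3 KO mice were within the WT range. For Pou2f3 the log2 fold change was 0.12 (SE 0.11, 95% confidence interval -0.11 to 0.35, adjusted p = 0.490 from edgeR), and the exact permutation test gave p = 0.381. Without KO6 it was 0.02.

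Most of the signal at Pou2f3 lay in 1 of its 8 peaks. Peak 3 took 75.2% ± 1.73 of the gene's counts in WT mice and 67.9% ± 7.30 in KO mice (SD, n = 5 each). It had 15.2, 17.6, 17.1, 15.1 and 16.9 CPM in WT1 to WT5 and 19.0, 19.5, 15.1, 14.1 and 16.9 CPM in KO6 to KO10, with no separation of the genotypes (log2 fold change 0.05, adjusted p = 0.882 from edgeR). Peak 5, named after its values were seen, had the largest fitted difference of the 17 tested peaks, at 0.73 on the log2 scale (SE 0.38, adjusted p = 0.347 from edgeR). KO6 stood far above the rest, with 5.64 CPM against 0.991 to 2.32 CPM in the other 9 mice, and without KO6 the log2 fold change of peak 5 was 0.19. It rose to 1.04 with 1 surrogate variable (unadjusted p = 0.0218 from edgeR), and its unadjusted p was under 0.05 in 5 of 16 alternatives.

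Trpm5, the cation channel that depolarises tuft cells, had summed levels of 15.7, 15.6, 13.4, 14.4 and 17.7 CPM in WT1 to WT5 and 20.4, 16.8, 16.1, 15.9 and 16.2 CPM in KO6 to KO10. All 5 KO mice were above the WT median, and KO6 alone was above every WT mouse. For Trpm5 the log2 fold change was 0.15 (SE 0.12, 95% confidence interval -0.09 to 0.39, adjusted p = 0.399 from edgeR), and the exact permutation test gave p = 0.159. Without KO6 the log2 fold change was 0.07.

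All 3 peaks of Trpm5 were tested, and peaks 1 and 2 are named after their values were seen. At peaks 2 and 3 each, 4 of 5 KO mice were above every WT mouse. Peak 3, the strongest, had 7.65, 7.79, 5.75, 7.26 and 7.28 CPM in WT1 to WT5 and 10.9, 8.18, 9.37, 8.03 and 7.48 CPM in KO6 to KO10. KO10 was the KO mouse that fell within the WT range. The log2 fold change of peak 3 was 0.31 (SE 0.15, 95% confidence interval -0.00 to 0.63, unadjusted p = 0.0524, adjusted p = 0.318 from edgeR). The unadjusted p of peak 3 was under 0.05 in 6 of 18 alternatives, and its log2 fold change ranged from 0.15 with no filter to 0.40 after thinning. The exact permutation test gave p = 0.0238 for peak 3 and 0.305 after adjustment over all peaks tested. For peak 2, with 13 to 44 counts per mouse, the log2 fold change was 0.37 (adjusted p = 0.481 from edgeR), and its permutation p was 0.0317, or 0.326 adjusted. The value of peak 2 was 0.22 without WT3 and 0.20 both with loess offsets and with no filter. These were the 2 of the members' 17 tested peaks with a permutation p under 0.05, which 13.1% of all tested peaks had, and at the level of genes it was 1 of 6 (Neurog3) against 22.2%. At peak 1, WT mice averaged 5.52 ± 0.836 CPM and KO mice 5.93 ± 1.203 CPM (SD, n = 5 each), a difference of 0.07 on the log2 scale.

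**Figure D3:**
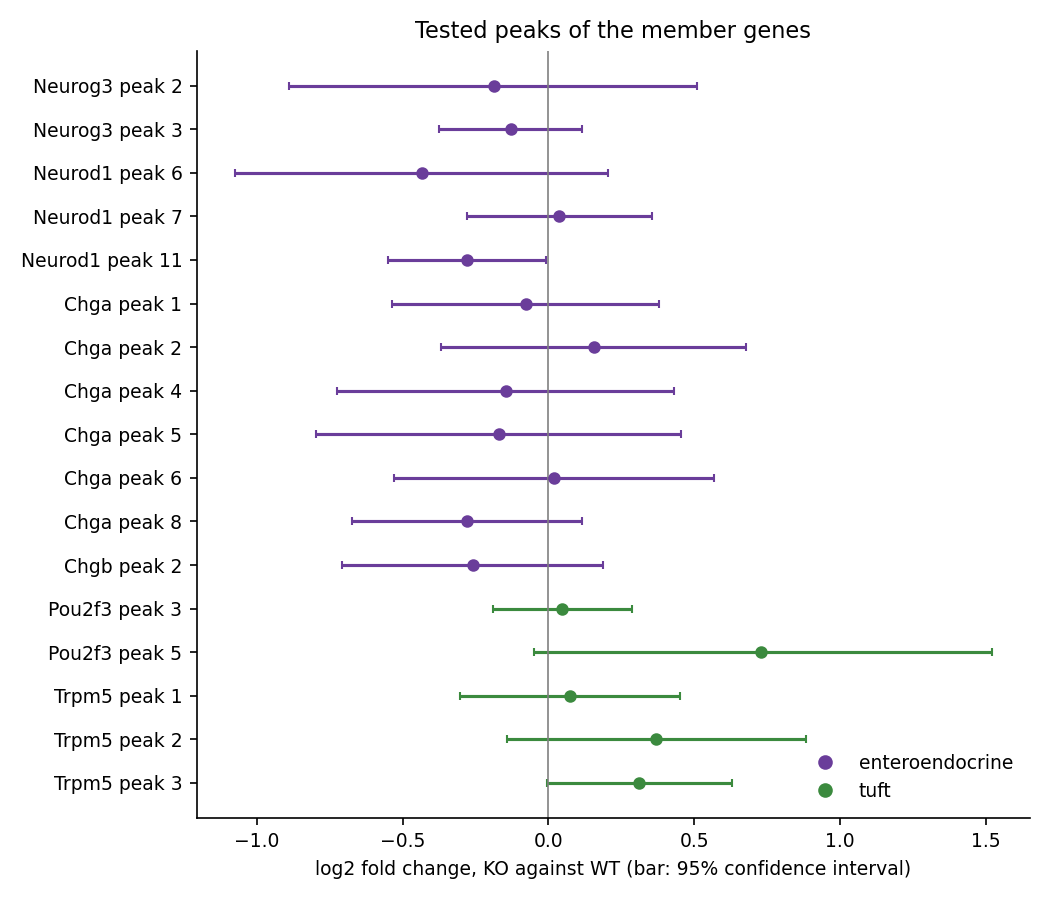
Log2 fold change from WT to KO (x axis) for the 17 tested peaks of the members, with 95% confidence intervals from edgeR, enteroendocrine genes in purple and tuft cell genes in green. The 5 tuft cell peaks lie between 0.05 and 0.73, and the 12 enteroendocrine peaks between -0.43 and 0.15, and the interval of 1 peak, Neurod1 peak 11, lies fully on one side of 0.

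Across the members, 17 of the 39 peaks passed the filter on low counts. Of the 12 tested peaks of the enteroendocrine genes, 9 were lower and 3 higher in KO mice, with a median log2 fold change of -0.16. Chga peak 5 turned higher without WT4. With 1 surrogate variable Neurog3 peak 2 and Chga peaks 1 and 4 turned higher and Neurod1 peak 7 turned lower. The median over all 17 tested peaks ranged from -0.18 with total counts to 0.06 with 1 surrogate variable, and was 0.01 without WT4. Of the 5 tested peaks of the tuft cell genes, 0 were lower and 5 higher, with a median of 0.31, although Pou2f3 peak 3 and Trpm5 peak 1 turned lower when counts were scaled by library totals alone, when no filter was used and when KO6 was left out. Without KO6 3 of the 5 were higher, with a median of 0.19. Over all 81022 peaks tested, 50.4% were lower and the median was -0.00. The peaks of 1 gene share their mice and are not independent. No tested peak passed an adjusted p of 0.05 (edgeR, lowest adjusted p 0.299), where 0.0% of all peaks did. DESeq2 gave Neurog3 peak 2 no adjusted p and called 0 of the other member peaks, where it called 552 peaks in all. At an unadjusted p under 0.05, 1 of the 17 was lower, and 0 were higher, against 5.66% lower, 10.4% higher and 16.0% in either direction among all peaks tested. With library totals in place of TMM this split of all peaks turned over, to 5830 higher and 9535 lower from 8399 and 4582, the median of all peaks moved to -0.10, and 13 of the 17 member peaks had values below 0. In none of the 17 were the genotypes free of overlap, a separation that 3.05% of all tested peaks had (1.21% with KO mice lower).

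**Figure D4:**
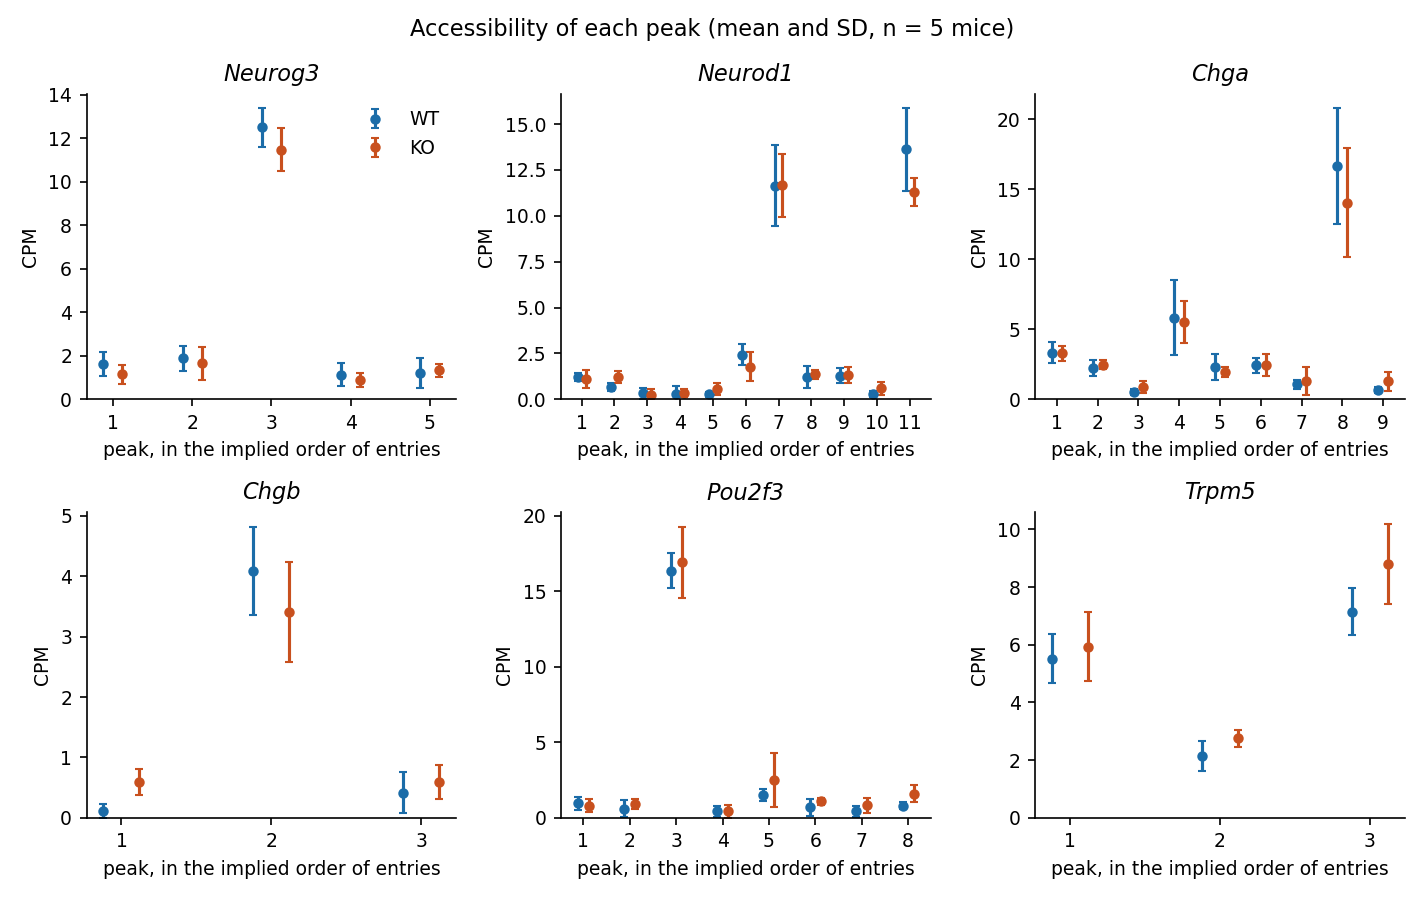
Mean accessibility of every peak of the 6 genes in the implied order of entries (x axis, peak number), in CPM on linear axes from 0, with WT in blue, KO in orange and bars for the SD over 5 mice. The strongest peaks, such as Chga peak 8 (16.7 CPM in WT and 14.0 CPM in KO mice) and Pou2f3 peak 3 (16.4 and 16.9 CPM), stand above peaks that mostly lie under 3 CPM.

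The 22 peaks under the filter held between 0 and 26 counts per mouse and at most 1.62 CPM on average. Of these, 17 had a higher mean in KO mice and 5 a lower one, and 72.1% of all 165457 peaks under the filter were higher. The genotypes did not overlap in 2 of the 22, both higher in KO mice and named after their values were seen, against 1.98% higher and 2.13% in either direction among all peaks under the filter. Pou2f3 peak 8 had 5, 6, 8, 6 and 11 counts in WT1 to WT5 and 15, 7, 8, 7 and 7 counts in KO6 to KO10, which gave 0.794 ± 0.236 CPM and 1.61 ± 0.588 CPM (SD, n = 5 each). Chgb peak 1 had 1, 0, 0, 2 and 4 counts in WT1 to WT5 and 2, 2, 4, 4 and 4 counts in KO6 to KO10. At both peaks the raw counts of the genotypes overlapped, and only the CPM, which are scaled by library total, did not. Fitted with no filter on low counts, Pou2f3 peak 8 and Chgb peak 1 had adjusted p of 0.263 and 0.296 from edgeR.

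The nearest 10 peaks on either side of each gene's peaks were read in the same order, to see the surroundings of the members. Around Neurog3, 5 of 6 tested neighbours were lower in KO mice, around Neurod1 5 of 8, around Chga 11 of 16 and around Chgb 7 of 9, where 50.4% of all tested peaks were lower. The median log2 fold changes of these neighbours were -0.16, -0.15, -0.08 and -0.12. Around Pou2f3 5 of 6 tested neighbours were higher in KO mice, with a median of 0.17, and around Trpm5 9 of 13, with a median of 0.03. At an unadjusted p under 0.05 from edgeR, 2 of these neighbours were lower around Neurod1, 1 around Chga and 1 around Chgb, 1 was higher around Pou2f3, and 0 differed around Neurog3 and Trpm5. Among all tested peaks, 5.66% were lower and 10.4% higher at this threshold, or 16.0% in either direction. The other neighbours of each gene's 20 were under the filter on low counts and enter none of these counts. This choice of neighbours was made after the values of the members were seen.

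**Figure D5:**
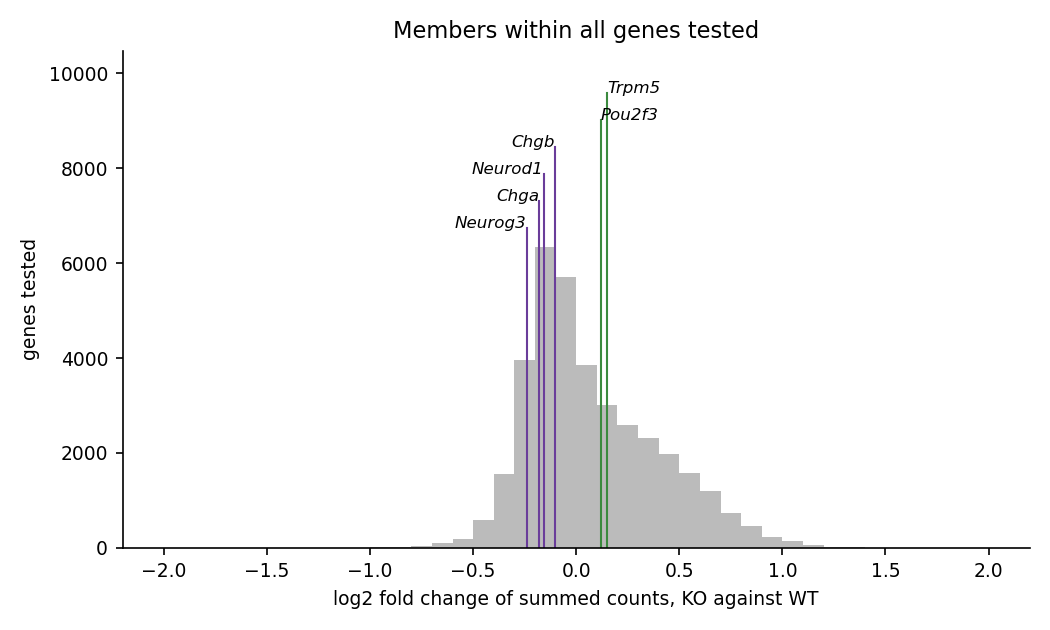
Histogram of the log2 fold change of summed counts for all genes tested, between -2 and 2 (12 genes lie outside), with lines at the values of the 6 members (enteroendocrine in purple, tuft in green). The members lie between -0.24 (Neurog3) and 0.15 (Trpm5), within the bulk of the genes, of which 12.2% had a lower value than Neurog3 and 65.3% a lower value than Trpm5.

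Library totals were between 5202949 and 15775481 counts in WT mice and between 4731176 and 6094983 in KO mice, so peaks of equal CPM held fewer counts in most KO than WT mice. The strongest single peak of a mouse held between 5.66% (WT5) and 14.4% (WT4) of its total. Thinned to the smallest total, Neurog3 kept a log2 fold change of -0.22 with an unadjusted p of 0.0646. Without WT2 the Neurog3 log2 fold change was -0.28 with an adjusted p of 0.0833, and without WT2 and KO7 together, a choice made after seeing the data, it was -0.30 with an adjusted p of 0.0799 (edgeR).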

How the data were processed

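IECs were released with EDTA from the proximal small intestine (duodenum per the labels, with the upper jejunum in the study's methods) and sorted by flow cytometry with antibodies to EpCAM, CD45, CD31 and TER-119, and Tn5 libraries were made by a commercial laboratory, per the labels and the study's methods. The authors deposited raw counts per peak for each mouse, on build mm10, with the Ensembl ID assigned to each peak. How reads were aligned, how peaks were called and assigned to genes and whether duplicates were removed is not given in the sources used here. The authors also deposited a normalized signal, which was the raw count divided by 1 factor per mouse and was used only for this check. The 2 deposited files were identical. Of 246501 entries, 22 without values were left out, and 594 peaks without a gene ID (0.780% of counts) entered the peak test but no gene sum.

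Raw counts were tested per peak (81022 of 246479) and per gene ID after summing its peaks (36715 of 44580) with edgeR 4.0.16 (TMM, filterByExpr by genotype, quasi-likelihood test, Benjamini-Hochberg adjustment over all features tested) in R 4.3.3. The exact two-sided permutation test ran over 252 labelings on log2 CPM with a prior count of 2. Reads counted in peaks are not independent molecules. Each mouse is 1 library, and intervals over mice include animal and technical spread. The alternatives were total counts, loess offsets (span 0.3), DESeq2 1.42.0, no filter, at least 10 counts in every mouse, 1 surrogate variable (sva 3.50.0), thinning, leaving out each mouse, a prior count of 0.5 and the strongest peak of each gene. The scripts were tested on simulated data. The members and lists were chosen with earlier results of these data known. The genes named are the members, with their peaks at an unadjusted p under 0.05 or else their strongest peak, and other peaks were chosen after their values were seen. The reference table paired 0 of its 49997 genes with an Ensembl ID, so wider enteroendocrine and tuft lists, epithelial markers and markers of other cell types were not analysed here.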

Additional observations from a re-analysis of the deposited data

Results flagged for a closer look

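In 3 of the 46 groups of 5 mice examined (each genotype at each of the 6 genes and 17 tested peaks), 1 mouse stood apart from the other 4 by a gap of more than 0.71 of the whole range. Chance alone flags about 1 in 20 groups. KO6 had 20.4 CPM over the peaks of Trpm5, against 15.9 to 16.8 CPM in the other KO mice. KO6 also had 5.64 CPM at Pou2f3 peak 5, against 1.11 to 2.32 CPM in the other KO mice. WT3 had 5.75 CPM at Trpm5 peak 3, against 7.26 to 7.79 CPM in the other WT mice, and without WT3 the difference at that peak had an adjusted p of 0.501 from edgeR.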

How the results depend on the processing

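None of the 6 genes and 17 tested peaks of the members passed an adjusted p of 0.05 in any alternative that gave it one (DESeq2 gave none for Neurog3 peak 2, and the stricter filter and thinning dropped some weak peaks). The sums of Neurog3, Neurod1, Chga, Pou2f3 and Trpm5 kept their direction in all 18 alternatives, and Chgb ranged from -0.34 with loess offsets to 0.09 with 1 surrogate variable. The log2 fold change ranged from -0.30 to -0.18 at Neurog3, from -0.21 to -0.06 at Neurod1, from -0.28 to -0.07 at Chga, from 0.02 to 0.20 at Pou2f3 and from 0.07 to 0.23 at Trpm5. Neurog3 had an unadjusted p under 0.05 in 12 of the 18, and its adjusted p ranged from 0.0799 to 0.362. Neurod1 peak 11 had one in 7 of the 18 and Trpm5 peak 3 in 6. Pou2f3 peak 5 had one in 5 of 16, Chga peak 8 in 2 of 18 and Neurod1 peak 6 in 2 of 17. Of the tested peaks, Neurog3 peak 2, Neurod1 peak 7, Chga peaks 1, 2, 4, 5 and 6, Pou2f3 peak 3 and Trpm5 peak 1 changed sign in at least 1 alternative. In the permutation test, Neurog3 gave p = 0.127 and Trpm5 p = 0.0238 when the exact test used only the strongest peak.

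Counts over all features moved far more, and the cause was not tested. All peaks past an adjusted p of 0.05 numbered 0 by edgeR (12981 at an unadjusted p under 0.05), 552 by DESeq2, 394 with no filter, 833 with at least 10 counts in every mouse and 6 with 1 surrogate variable, and 0 to 1895 when 1 mouse was left out (highest without WT2, then 78 without WT1 and 61 without KO7). All genes past it numbered 1434 by edgeR, 890 with total counts, 305 with loess offsets, 2188 by DESeq2, 25 with 1 surrogate variable and 195 after thinning, and 0 to 3310 when 1 mouse was left out (0 without WT3, WT5, KO6, KO9 or KO10, 342 without WT4, 867 without KO8, 2235 without KO7 and 3310 without WT2). Without WT2 and KO7 together, a choice made after seeing the data, the counts were 1972 peaks and 4293 genes. Among peaks at an unadjusted p under 0.05, 8399 were higher and 4582 lower in KO mice with TMM, 5830 and 9535 with total counts, and 6115 and 4926 with loess offsets. Total counts moved the median of all peaks to -0.10 on the log2 scale, and 13 of the members' 17 peaks were then lower. No paired analysis was possible because mouse numbers run 1 to 5 in WT and 6 to 10 in KO mice. The alternatives for the wider gene lists were not run. Chgb had the fewest counts of the 6 genes, 19 to 81 per mouse.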
